A study of Mus musculus with 130 samples.

Results

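The G1-S gate of FUCCI mouse embryos was compared with unsorted cells of the same embryo preparations. FUCCI is a pair of fluorescent cell cycle reporters that lets a sorter separate cells by phase. The 10 libraries are all those labelled as G1-S phase cells or as unsorted cells, 5 of each, out of 25 libraries in the series. Each was deposited in 2 to 8 lane parts, so that the 10 libraries stand for 52 of 130 deposited samples. The series also holds 3 other sorted gates, labelled G0, G1 and S-G2-M, for each of the 5 preparations. All groups are whole embryos of the FVB/NJ strain, described as FUCCI wild type. Preparations WT1 and WT2 are of embryonic day 10.5 (E10.5), WT3 is of E11.5, and 5 and 8 are of E13.5. No treatment or deletion is named. Whether each preparation came from a single embryo or from several is not in the labels, so p-values measure the spread between 5 preparations. Values below are given in the order WT1, WT2, WT3, 5 and 8, and each G1-S library was paired with the unsorted library of its own preparation.

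FUCCI tags fragments of Cdt1 and of geminin, proteins that are degraded at opposite times of the cycle, so that cells passing from G1 into S phase carry both colours for a short time. In that window E2F transcription factors, freed from the retinoblastoma family of pocket proteins, switch on genes for origin licensing, DNA synthesis and repair. The mitotic genes follow later, under the DREAM and MuvB complexes. Unsorted cells hold every cell of the minced embryo: cycling cells, neurons that have left the cycle and blood cells. They also hold the cells that the gates collect.

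Depth was 15.6 to 31.4 M counts (M, mega) in the G1-S libraries and 26.2 to 49 M in the unsorted ones. Lane parts of 1 library differed by little more than counting error, with a variance 1.09 to 1.23 times that of sampling, against 5.88 to 339 between preparations of 1 fraction. Mitochondrial genes took 0.402 to 0.701% of counts in the WT-titled libraries of both fractions and 2.17 to 3.42% in those of 5 and 8. Day and title series therefore cannot be told apart. The unsorted libraries stood apart among themselves. Gm26917 and Gm42418, a pair of transcripts that overlap ribosomal RNA repeats, took 9.47% of counts in WT1 and 1.49 to 2.9% in the other 4. Gene models lying within the span of a coding gene, described further on, took 0.593 and 0.355% in WT1 and WT2 and 0.0803 to 0.143% in WT3, 5 and 8. The unsorted library of WT3 had the largest share of ribosomal protein genes, 3.31%.

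Of 21065 genes tested with edgeR's quasi-likelihood test, blocked by preparation, 5980 differed between G1-S and unsorted cells at a Benjamini-Hochberg adjusted p under 0.05, which is 28.4%. Higher in G1-S cells were 2848 genes (13.5%), and lower were 3132 (14.9%). The median log2 change over all genes tested was 0.007. Levels are given as CPM, read counts scaled to a common library size. Among genes called, 1316 were at least 2-fold higher and 470 at least 2-fold lower, whereas 2 were at least 8-fold higher and 74 at least 8-fold lower. All 5 G1-S values lay above all 5 unsorted values for 628 genes (2.98%) and below them for 862 (4.09%). With the E10.5 and E11.5 preparations alone 1987 genes were called, and with the 2 E13.5 preparations alone 10518. The second fit rests on 2 pairs, and such a count depends on how alike the pairs are as well as on the size of the difference. Leaving out WT2, WT3 or 5 left 3322, 3548 and 3147, leaving out 8 left 4359, and leaving out WT1 gave 7166. The counts of list members without 1 preparation, given below, are to be read beside these totals.

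**Figure D1:**
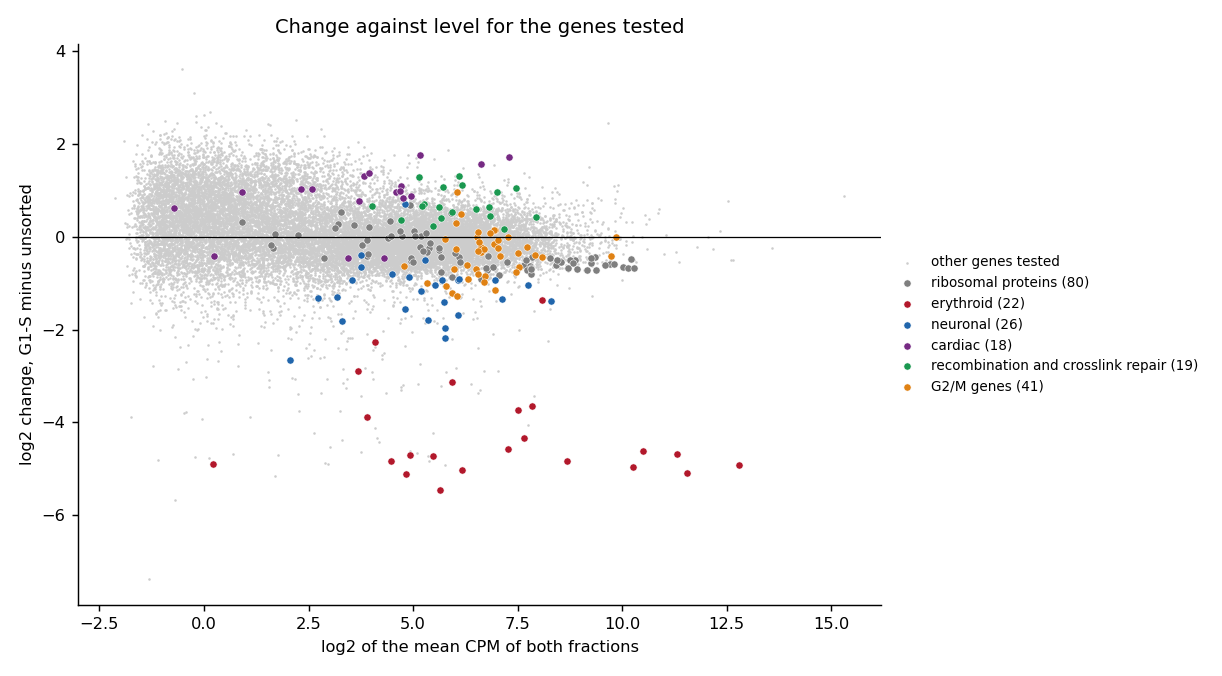
Each point is a gene tested, placed by the log2 of its mean CPM over both fractions (x axis) and by its log2 change, G1-S minus unsorted (y axis), with 6 gene lists in colour. The 22 erythroid genes lie far below 0, with a median of -4.70, and the cardiac genes lie mostly above it, with a median of 0.978.

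Red cell genes had the largest median difference of the 31 gene lists. All 22 erythroid genes of the list fell in G1-S cells, with a median log2 change of -4.70 against 0.007 over all genes tested, and 19 of them had no overlap between the groups. The list mean differed by -4.454, -3.776, -4.162, -4.169 and -4.905 log2 units in the 5 pairs. All 22 were lower when any 1 preparation was left out. In bulk samples, fewer cells of a type and less RNA per cell cannot be told apart. Globin genes took 1.54 to 3.66% of counts in unsorted cells and 0.0535 to 0.195% in G1-S cells.

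Hemgn, a nuclear protein of developing red cells (ENSMUSG00000028332.13, chr4:46393989-46413506, minus strand, GRCm38), had the lowest change of the 108 named genes. Its levels were 88.6, 57.7, 72.8, 131 and 142 CPM in unsorted cells and 1.82, 2.05, 1.79, 3.83 and 1.42 CPM in G1-S cells. Every G1-S value was below every unsorted value, and the fitted level was 43.8-fold lower (log2 change -5.45 ± 0.24 SE, n = 5 pairs, edgeR adjusted p = 2.77e-06). Klf1, the master regulator of globin genes (ENSMUSG00000054191.8, chr8:84901928-84905291), was at 29.4, 18.9, 35.6, 95.3 and 97.5 CPM unsorted and at 0.787, 0.79, 0.693, 3.51 and 2.03 CPM in the gate. The groups were again apart, by -5.12 ± 0.19. Both fractions had more Klf1 at E13.5 than before.

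Hbb-y, the embryonic beta-like globin (ENSMUSG00000052187.4, chr7:103851749-103853216), stood at 15800, 7510, 16400, 12100 and 16600 CPM in unsorted cells and at 390, 254, 374, 829 and 522 CPM in G1-S cells (-4.91 ± 0.26). Hbb-bs, an adult-type globin, was at 292, 154, 184, 7680 and 5760 CPM unsorted and at 10.6, 8.57, 11.2, 293 and 146 CPM in the gate (-4.61 ± 0.21). The adult-type gene was higher at E13.5 in both fractions, and the change of its difference from E10.5 to E13.5 was -0.54 (adjusted p = 0.452). Hba-a1 and Hba-a2, like Hbb-bs and Hbb-bt, are near-identical copies whose reads can be split in ways the files do not record. The red cell membrane genes Slc4a1 and Ermap changed by -4.84 ± 0.19 and -4.92, and Trim10 by -4.84. The smallest changes of the list were those of Tfrc, the transferrin receptor of iron-demanding cells, at -1.36 ± 0.21, and Nfe2, a late erythroid factor, at -2.27 ± 0.48.

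Stretches upstream of Klf1 and Hbb-y are shown because they hold the letters of a GATA site, bound by the erythroid factor Gata1, whose own transcript fell by 3.88. They are from RefSeq (GRCm38.p6), run 5′ to 3′ and have the GATA letters in capitals. Both genes, and the letters, were chosen after the values were seen.
Klf1 (chr8:84901782-84901927, plus strand): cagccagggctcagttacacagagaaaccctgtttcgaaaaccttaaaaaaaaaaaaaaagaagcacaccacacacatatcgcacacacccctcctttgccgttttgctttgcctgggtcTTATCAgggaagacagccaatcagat
Hbb-y (chr7:103853217-103853407, minus strand): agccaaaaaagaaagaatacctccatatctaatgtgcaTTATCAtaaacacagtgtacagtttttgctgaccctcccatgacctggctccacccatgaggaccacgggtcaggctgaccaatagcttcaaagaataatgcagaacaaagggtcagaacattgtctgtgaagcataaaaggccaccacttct
Counted from the RefSeq start, the letters begin at base -80 in Klf1 and at base -162 in Hbb-y. The motif was searched on both strands as AGATAA or TGATAA, and also as AGATAG or TGATAG, in the 300 bases around each start. It was found for 14 of the 17 erythroid genes with a promoter in the table (82.4%) and for 22.7% of all genes tested that had one.

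Other blood lineages were looked at next. Of 10 genes of other blood cells tested, Mpo, the myeloperoxidase of granulocyte precursors, fell by 4.63 ± 0.31 and the other 9 did not pass. Mpo was at 4.97, 2.61, 4.03, 70.1 and 48.9 CPM in unsorted cells, and at 0, 0.205, 0.173, 2.18 and 2.46 CPM in G1-S cells, all of them lower. Of the macrophage genes, 6 of 16 rose, with a median of 0.376, among them C1qa, a complement component made by tissue macrophages, at 0.88 ± 0.15, and Adgre1, which encodes the surface marker F4/80, at 0.83 ± 0.16. Without preparation 5 the count was 3 of 16. Ptprc, the common leukocyte antigen, was at -0.02 (adjusted p = 0.925).

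Genes of neurons were also lower. Of 26 neuronal genes, 24 fell and 1 rose, with a median of -1.103, and 10 had no overlap between the groups. The list mean differed by -1.706, -0.771, -1.303, -1.26 and -0.962 log2 units in the 5 pairs. Counts without 1 preparation were 20 to 24. Prph, encoding peripherin, an intermediate filament of peripheral neurons (ENSMUSG00000023484.13, chr15:99055174-99058978), was at 4.88, 3.69, 2.89, 10.3 and 14 CPM unsorted and at 0.182, 1.64, 0.231, 2.08 and 1.8 CPM in G1-S cells. All 5 pairs fell and the groups did not overlap (-2.67 ± 0.42, adjusted p = 0.00339). Ina, encoding alpha-internexin of young axons, was at 70.5, 42.1, 36.6, 136 and 147 CPM unsorted and at 5.57, 12.1, 7.05, 36.7 and 52.8 CPM in the gate (-2.18 ± 0.27). The E13.5 G1-S values of Ina overlapped the E10.5 and E11.5 unsorted values, while every pair fell. Neurod4, a proneural factor of cells about to leave the cycle, was the gene that rose, by 0.70 ± 0.13.

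Of 16 genes of neural progenitors, Sox21, Dll1 and Neurog2 fell, by 0.51, 0.32 and 0.73, and Notch1 rose. Over all genes tested 14.9% fell and 13.5% rose, so these counts are near or below those shares. Notch1, the receptor that keeps progenitors undifferentiated, was at 427, 412, 378, 397 and 423 CPM in G1-S cells and at 298, 245, 205, 205 and 207 CPM in unsorted cells, with no overlap (0.83 ± 0.11). The 3 lower calls became 0 without WT2 or WT3, 1 without WT1 or 5, and 5 without 8. The other 12 members, with Sox2 at -0.29 and Nes at 0.03, did not pass.

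Genes of the start of S phase were higher in the gate where they passed. Of 23 replication licensing genes, 7 rose and the other 16 did not pass, with a median of 0.194. The list mean differed by 0.577, 0.128, -0.051, 0.328 and 0.291 log2 units in the 5 pairs, with no rise in WT3. Cdc6, which loads the replicative helicase onto origins (ENSMUSG00000017499.15, chr11:98907801-98923940), was at 171, 165, 227, 103 and 100 CPM in G1-S cells and at 66.3, 82.5, 115, 63.2 and 65.3 CPM in unsorted cells. It was higher in every pair, by 1.92-fold (0.94 ± 0.12, adjusted p = 0.00134), while the E13.5 G1-S values lay below the unsorted value of WT3. Mcm10 rose by 0.89 ± 0.11, Cdc45 by 0.84, Gins3 by 0.67, Cdc7 by 0.48 and Mcm4 by 0.36. Among the helicase subunits Mcm2 to Mcm7, only Mcm4 passed the test, and the other 5 lay between 0.06 (Mcm2) and 0.39 (Mcm6, adjusted p = 0.0566). Orc1 to Orc6, the subunits of the origin recognition complex, lay between -0.34 and 0.19 and did not pass.

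The genes whose protein fragments the reporter carries were Cdt1 and Gmnn. Cdt1 (ENSMUSG00000006585.3, chr8:122568015-122573554) was at 101, 108, 113, 94.8 and 98.2 CPM in G1-S cells and at 64.7, 67, 79.3, 76.3 and 78.4 CPM in unsorted cells, with no overlap (0.49 ± 0.10, adjusted p = 0.00739). Gmnn, encoding geminin, the inhibitor of Cdt1, was at 85.7, 72.1, 101, 35.3 and 45.8 CPM in the gate and at 56.1, 80.8, 137, 31.1 and 31.4 CPM unsorted. Gmnn was higher in 3 pairs and lower in 2, and the difference was within its error (0.14 ± 0.16, adjusted p = 0.514). FUCCI reads the proteins, which were not measured here.

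Of 31 genes of DNA synthesis, 14 rose and the other 17 did not pass, with a median of 0.354. Their list mean differed by 0.656, 0.152, -0.094, 0.468 and 0.489 log2 units in the 5 pairs. Without preparation 5 the count was 6, and without 8 it was 7. Higher calls over all genes tested also went from 2848 to 1439 without 5 and to 1922 without 8. Clspn, encoding the checkpoint mediator claspin, was at 326, 277, 249, 152 and 172 CPM in the gate and at 124, 142, 156, 72.4 and 75.7 CPM unsorted (1.06 ± 0.12). All pairs rose, and the overlap came from the E13.5 gate value of preparation 5. Pole, the catalytic subunit of the leading strand polymerase, rose by 0.95 ± 0.11 with no overlap. Tk1 and Tyms, which supply thymidylate, rose by 0.77 and 0.57, and Rrm2, a ribonucleotide reductase subunit, by 0.48. Pcna, the sliding clamp, was at 0.35 (adjusted p = 0.0745) and Dut at -0.20.

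Of 19 genes of recombination and crosslink repair, 15 rose, with a median of 0.652, and 7 had no overlap between the groups. The list mean was higher by 0.789, 0.494, 0.336, 0.98 and 0.919 in the 5 pairs, and without preparation 5 the count was 10. Brip1, a helicase of the Fanconi pathway (ENSMUSG00000034329.16, chr11:86058138-86201193, minus strand), was at 133, 100, 108, 75.4 and 69.1 CPM in G1-S cells and at 41.1, 49.1, 54.7, 27.7 and 26 CPM unsorted. Every G1-S value was above every unsorted value, at 2.48-fold (1.31 ± 0.12, adjusted p = 0.000274). Rad54b, a motor of strand exchange, rose by 1.30 ± 0.13, also without overlap, and Fanca and Bard1 rose by 1.12 and 1.06. The mismatch repair gene Msh6 rose by 0.44.

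Among 9 G1 cyclins and kinases, 4 rose (Ccne1, Ccne2, Cdk2 and Cdc25a) and Ccnd3 fell. Without preparation 5, 2 rose. Ccne2, the E-type cyclin that drives S phase entry (ENSMUSG00000028212.16, chr4:11191351-11204779), was at 163, 143, 199, 110 and 84.4 CPM in the gate and at 45.7, 66.3, 104, 44.9 and 49.6 CPM unsorted. The rise was 2.27-fold (1.18 ± 0.15, adjusted p = 0.00123) and seen in 5 of 5 pairs, with 1 E13.5 gate value below the highest unsorted value. Ccne1 rose by 0.65 ± 0.13. Ccnd3, a D-type cyclin, fell by 0.40 ± 0.09. Against the mean of the other 3 gates, a comparison given further on, Ccnd3 was higher, by 0.59 ± 0.08. Ccnd1, Ccnd2, Cdk4 and Cdk6 lay between -0.24 and 0.34 and did not pass.

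The E2F family divided by member. E2f7 and E2f8, the atypical repressors that are themselves E2F targets, rose by 1.48 ± 0.12 and 1.05 ± 0.12. E2f7 (ENSMUSG00000020185.16, chr10:110745439-110787384) was at 110, 121, 102, 106 and 103 CPM in the gate and at 48.8, 46.3, 40.6, 29.8 and 32.2 CPM unsorted. Its groups were far apart, and the gate value was nearly the same in every preparation. The activators E2f1 and E2f3 rose by 0.72 ± 0.11 and 0.62 ± 0.11, and E2f4, a partner of the pocket proteins in arrested cells, fell by 0.77 ± 0.10, all 3 without overlap. Against the mean of the other 3 gates E2f4 was at 0.09 (edgeR adjusted p = 0.35). E2f2, the third activator, differed by preparation series. It was at 59.6, 47.7, 47.7, 51.2 and 52.2 CPM in the gate, against 40.6, 30.4, 35.2, 137 and 123 CPM in unsorted cells. The gate value was steady, and the unsorted value lay below it in the 3 earlier preparations and above it in the 2 later ones (day difference -1.93 ± 0.18, adjusted p = 0.00688). E2f5 and E2f6 were at -0.36 and 0.09 and did not pass, nor did Rb1, Rbl1 and Rbl2. Of 6 CDK inhibitors, Cdkn1b and Cdkn2d, encoding p27 and p19, fell by 0.56 ± 0.13 and 0.73 ± 0.14 without overlap. Cdkn1a and Cdkn1c were at 0.48 (adjusted p = 0.178) and 0.08 (adjusted p = 0.614).

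Stretches upstream of Cdc6 and E2f7 are shown, again from RefSeq (GRCm38.p6), with letters of an E2F-type element in capitals. E2f7 was added after its values were seen.
Cdc6 (chr11:98907982-98908150, plus strand): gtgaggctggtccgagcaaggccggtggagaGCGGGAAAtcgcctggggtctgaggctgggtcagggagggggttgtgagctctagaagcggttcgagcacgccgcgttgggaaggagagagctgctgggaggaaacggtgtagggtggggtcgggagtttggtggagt
E2f7 (chr10:110745239-110745438, plus strand): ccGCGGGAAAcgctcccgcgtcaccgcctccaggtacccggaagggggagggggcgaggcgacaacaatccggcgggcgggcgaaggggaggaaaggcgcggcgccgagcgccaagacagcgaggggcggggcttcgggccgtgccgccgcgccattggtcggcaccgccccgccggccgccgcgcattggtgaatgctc
The letters start at base -138 in Cdc6 and at base -198 in E2f7, counted from the RefSeq start. The element was searched on both strands as TTTCCCGC or TTTGGCGC. It was found in 3.11% of the promoters of genes tested, in 5.92% of those of coding genes higher in G1-S cells, in 2.25% of those lower and in 2.93% of those not called. It was found for 8 of 18 licensing genes, 5 of 26 DNA synthesis genes, 3 of 13 recombination genes and 0 of 34 G2/M genes with a promoter in the table. In Cdt1 it lay after the start. The Cdc6 stretch lies upstream of the RefSeq start and within the gene span given above, which is GENCODE's and begins earlier.

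**Figure D2:**
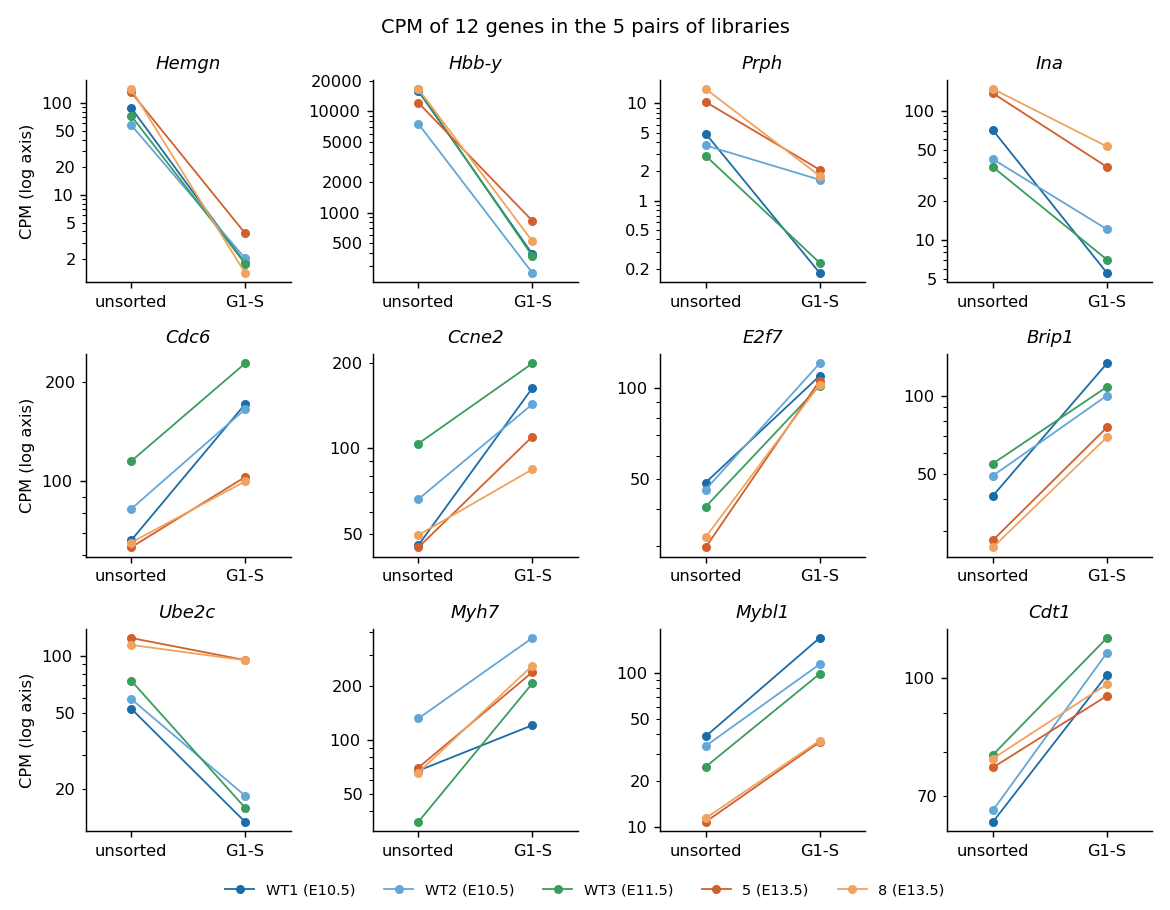
CPM on a log axis for 12 genes in unsorted and G1-S libraries, with 1 line for each of the 5 preparations. Hemgn and Hbb-y fall steeply in every pair, E2f7 and Brip1 rise without overlap, and Ube2c falls in WT1, WT2 and WT3 with little change in 5 and 8.

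Genes of G2 and mitosis differed with the preparation series. Their list mean differed by -0.614, -0.823, -1.174, 0.361 and 0.396 log2 units in the 5 pairs. Of 41 genes, 8 fell and 1 rose, with a median of -0.325, where 14.9% of all genes tested fell and 13.5% rose. The count of lower members was 4 without WT1, WT2 or WT3, 12 without 5 and 14 without 8. Within the 3 WT-titled preparations 24 fell and 1 rose, where 1055 of all 22172 genes tested fell and 932 rose. Within 5 and 8 alone 4 fell and 30 rose, where 5229 of all 19875 genes tested fell and 5289 rose. Ube2c, the conjugating enzyme of the anaphase-promoting complex (ENSMUSG00000001403.13, chr2:164769898-164778822), was at 52.8, 59.3, 74.1, 124 and 114 CPM unsorted and at 13.4, 18.4, 15.9, 94.9 and 94.7 CPM in the gate (-1.29 ± 0.29, adjusted p = 0.0124). The E10.5 and E11.5 gate values were far below their unsorted partners, and the E13.5 ones were close to them. Ccnb2, a mitotic cyclin (ENSMUSG00000032218.7, chr9:70407692-70421547), was at 64.8, 82.5, 117, 77 and 78.2 CPM unsorted and at 22.2, 24.9, 35.9, 50.5 and 57.3 CPM in the gate. Here the groups did not overlap (-1.21 ± 0.21). Cdc20 and Pttg1, regulators of anaphase, fell by 1.14 and 0.99, Aurka by 0.91, Hmmr by 0.98 and Cdc25b by 1.06. The member that rose was Mybl2, an E2F target that acts before mitosis, by 0.96 ± 0.10 without overlap. Cdk1 and Top2a were at 0.00. Mki67, encoding the proliferation antigen Ki-67, was at -0.42 (adjusted p = 0.0409) and did not pass when any 1 preparation was left out.

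Stretches upstream of Ube2c and Ccnb2 are shown as the G2/M counterpart of those of Cdc6 and E2f7, with letters of a cell cycle homology region (CHR) in capitals, the element that the DREAM and MuvB complexes contact.
Ube2c (chr2:164769729-164769905, plus strand): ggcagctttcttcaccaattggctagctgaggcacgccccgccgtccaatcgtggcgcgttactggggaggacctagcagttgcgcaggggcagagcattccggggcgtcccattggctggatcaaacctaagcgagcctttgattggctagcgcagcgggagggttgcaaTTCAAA
Ccnb2 (chr9:70421555-70421754, minus strand): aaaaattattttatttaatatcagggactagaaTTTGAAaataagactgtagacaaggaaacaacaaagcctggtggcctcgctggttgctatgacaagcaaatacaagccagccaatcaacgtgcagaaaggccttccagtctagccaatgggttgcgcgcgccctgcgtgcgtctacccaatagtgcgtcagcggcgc
The letters begin at base -29 in Ube2c and at base -167 in Ccnb2, which has another match from base 5 after the start, not shown. The stretches hold 5 and 3 matches to the letters CCAAT on either strand, with overlapping matches in Ube2c counted separately. The CHR, searched on both strands as TTTGAA or TTCGAA, was found for 26 of the 34 G2/M genes with a promoter in the table (76.5%) and for 16.3% of the promoters of genes tested. A match of letters in such a window is a description and not a measured site.

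Replication-dependent histone genes did not pass as a group. None of 59 was called by edgeR, with a median of 0.016. At an unadjusted p under 0.05 there were 2, and DESeq2 called 2 higher and 1 lower. The list mean was at 0.209, -0.7, -0.491, 0.555 and 0.529 log2 units in the 5 pairs. The histone genes are near-identical copies with transcripts that mostly lack a poly(A) tail, and the libraries were made from RNA depleted of ribosomal RNA.

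Cell type lists with more members higher than lower in the gate included those of heart, muscle and neural crest. Of 18 cardiac genes, 14 rose, with a median of 0.978, and the count was 12 to 14 without any 1 preparation. Scaled and fitted with all 25 libraries, 6 cardiac genes rose. Myh7, the slow cardiac myosin heavy chain (ENSMUSG00000053093.15, chr14:54970684-54994626, minus strand), was at 121, 371, 207, 239 and 260 CPM in G1-S cells and at 67.5, 132, 35, 70.2 and 65.9 CPM unsorted. Every pair rose, and the WT1 gate value lay below the WT2 unsorted value (1.73 ± 0.21). Myh6, Ryr2 and Actn2, for the sarcomere and its calcium release, rose by 1.57, 1.77 and 1.38. Gata4, Tbx20 and Nkx2-5, the cardiac transcription factors, rose by 0.78, 0.97 and 0.97, and Tbx5 fell by 0.47, a call lost without any of WT2, WT3, 5 or 8.

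Of 19 skeletal muscle genes, 8 rose and Mylpf fell, with a median of 0.544, which was -0.408 within 5 and 8 alone. The list mean was at 0.391, 0.735, 0.551, -0.234 and 0.047 in the 5 pairs. Ttn, encoding the giant sarcomere spring titin, had the largest rise of the 108 named genes. It was at 821, 2740, 1490, 1090 and 744 CPM in the gate and at 284, 431, 76.3, 233 and 223 CPM unsorted, with no overlap (5.49-fold, 2.46 ± 0.35). Scaled over all 25 libraries, mean Ttn was 1420 CPM in G1-S, 1170 in G0, 329 in G1 and 133 in S-G2-M. The list mean was higher in G0 than in G1-S in WT1, WT2 and WT3 (2.028, 3.332 and 2.849 against 1.595, 2.615 and 2.187 log2 CPM). It was lower in G0 in 5 and 8. Myod1 and Myf5, the myogenic determination factors, rose by 0.73 and 0.85, while the later factor Myog was at 0.46 (adjusted p = 0.221). Without preparation 8 the count was 4.

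Of 10 neural crest and glia genes, 8 rose, with a median of 0.871. The count was 5 without WT3 and 4 without 5 or without 8. Erbb3, the neuregulin receptor of crest and Schwann cell precursors, rose by 1.28 ± 0.14, Sox10 by 1.12 ± 0.22 and Cdh19 by 1.52 ± 0.20. Adgrg6, a receptor needed by Schwann cells that was on no list, was at 22, 31.9, 23.3, 83.4 and 89.5 CPM in the gate and at 5.83, 9.1, 5.31, 34 and 34 CPM unsorted (1.69). It rose in every pair.

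Of 15 endothelial genes, 6 rose, with a median of 0.697, but the list mean was at 1.331, 0.883, 1.41, 0.128 and -0.32 in the 5 pairs. The count was 0 without WT1, WT2 or WT3, 10 without 8, and 0 without the preparation block. Flt1, a receptor for vascular endothelial growth factor, was at 29, 84, 69, 42.2 and 26 CPM in the gate and at 7.67, 37.1, 18.5, 36 and 30 CPM unsorted (0.999 ± 0.303). It was higher in 4 pairs and lower in preparation 8.

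Mesenchyme and matrix genes were divided, with 5 of 21 higher (Pdgfrb, Col1a1, Col5a1, Col6a2 and Fbn1) and 2 lower (Twist1 and Prrx2). The higher count was 1 without WT2 or WT3, 2 without WT1 and 8 without 5 or 8, and the lower count was 1 without WT2, WT3 or 5. Of 15 epithelial genes 4 rose (Cdh1, Grhl2, Esrp1 and Dsp), and 2 without 5 or without 8. Of 8 smooth muscle genes 3 rose. Of 14 cartilage genes Sox5 rose (0 without WT2, WT3 or 5) and Cnmd fell, and of 10 kidney and urogenital genes Wt1 and Six2 rose and Pax8, Lhx1 and Emx2 fell (1 lower without WT2 or 8). Of 18 hepatocyte genes Apob rose and Ttr fell, with a median of 0.012. Without 5 or 8 neither passed. Over all genes tested 13.5% rose and 14.9% fell, so the cartilage and hepatocyte counts are no larger than those shares.

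The remaining abundant genes with large rises included Mybl1, Ulbp1 and Mybpc3. Mybl1, a relative of Mybl2 known for its role in male meiosis (ENSMUSG00000025912.16, chr1:9667415-9700209, minus strand), was at 169, 114, 98.7, 35.6 and 36.4 CPM in the gate and at 38.8, 33.6, 24.6, 10.8 and 11.4 CPM unsorted. It rose 3.64-fold, by an amount that varied little among preparations (1.86 ± 0.10, adjusted p = 1.02e-05). Ulbp1, a ligand of an activating receptor on natural killer cells, rose by 1.77, and Mybpc3, of the sarcomere, rose by 1.74.

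Ribosomal protein genes were mostly lower in the gate. Of 80, 47 fell and 3 rose (Rps27, Rpl3 and Rpl35a), with a median of -0.448. The count of lower members was 26 without WT2, 28 without 5 and 17 within the WT-titled preparations alone. Rpl39 fell by 0.90 ± 0.11 and Rps27l by 0.87 ± 0.13. These genes have many processed copies, so their reads can be shared. Of 18 glycolysis genes 6 fell and Gapdh rose, at 0.61 ± 0.16. The lower count was 2 without WT2 or without 5, and 3 without WT3. Gapdh too has many processed copies.

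Dissociation response, heat shock, p53 target and cholesterol synthesis genes had more lower than higher calls, in counts that varied with the preparations used. Over all genes tested 14.9% were lower and 13.5% higher. Of 22 dissociation response genes, 2 rose (Egr3 and Atf3) and 5 fell (Fos, Jund, Ier2, Btg2 and Myc), with a median of 0.012, and 3 fell without 5. The mean of that list was at -0.188, 0.15, 0.232, -0.087 and -0.116 log2 units in the 5 pairs. Of 14 heat shock genes 4 fell: 7 without WT1, 0 without WT2 or WT3, 1 without 5 and 2 without 8. Of 16 p53 targets Zmat3 rose and 5 fell, among them Ccng1 at -0.70, and 2 fell without 5 and 3 without WT3 or 8. Of 18 cholesterol synthesis genes 3 fell: 5 without WT1, 0 without WT2 or 5, and 1 without WT3 or 8. None of 8 interferon response genes and none of 11 mitochondrially encoded genes was called by edgeR or by DESeq2, with 1 and 0 at an unadjusted p under 0.05.

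**Figure D3:**
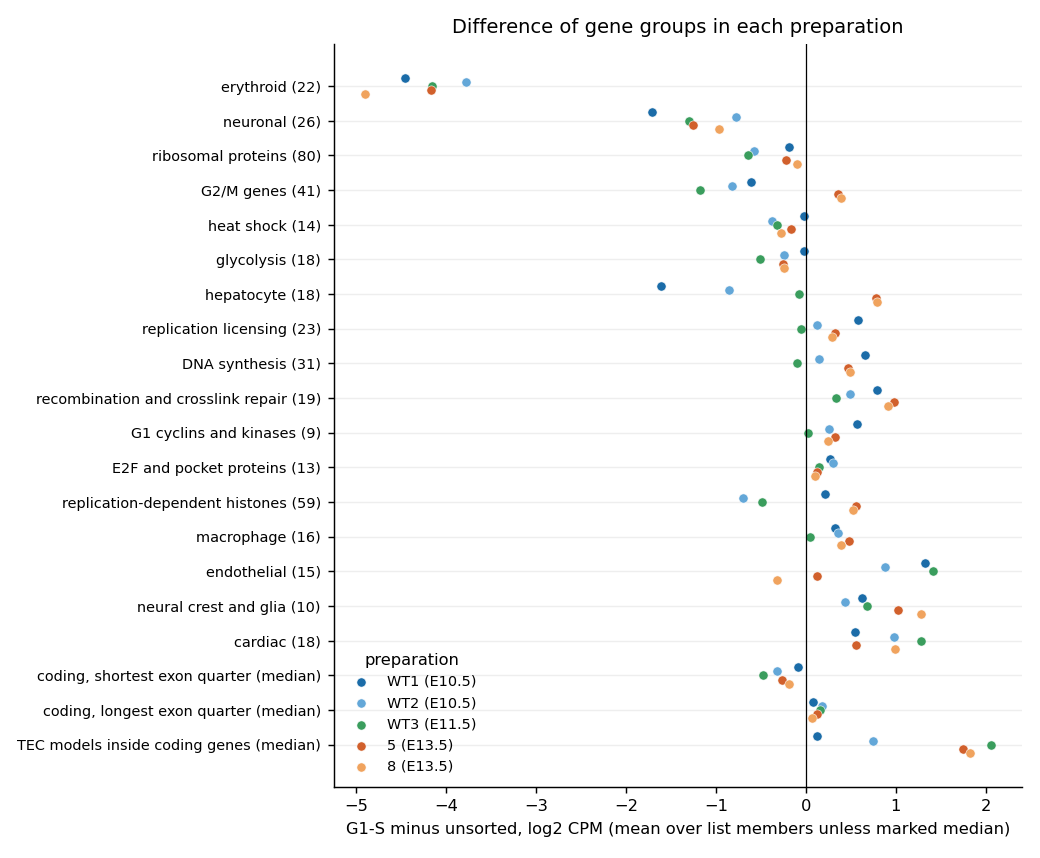
The difference between G1-S and unsorted cells in log2 CPM (x axis) for gene lists and gene classes (rows), with 1 point for each preparation. The erythroid points lie between -4.905 and -3.776, G2/M genes and histones fall on both sides of 0, and the gene models inside coding genes run from 0.127 in WT1 to 2.062 in WT3.

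The class of gene model moved with these differences. TEC models, a GENCODE class of short models that still await experimental support, lay for the most part within the span of a coding gene on the same strand. Of 1051 such models tested, 599 rose and 1 fell, with a median of 1.238, and the median differed between the pairs from 0.127 in WT1 and 0.75 in WT2 to 2.062, 1.752 and 1.831 in WT3, 5 and 8. Coding genes moved with the length of their exons. In 4 equal bins of length, from the shortest to the longest, the median change was -0.26, -0.153, -0.047 and 0.118, and the share called higher was 3.77, 6.4, 11.7 and 23.9%. The share called lower was 27, 21.3, 15.1 and 7.85%. Long genes such as Ttn, Ryr2 and Fbn1 are on the higher side, and short ones such as the ribosomal protein genes are on the lower side. The part of these features in the results above was not tested.

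The difference between the gate and unsorted cells was then compared between E13.5 and E10.5, with 2 preparations each. Of 21065 genes, 377 (1.79%) had a difference that changed, upward for 231 (1.1%) and downward for 146 (0.693%). Upward calls were 61.3% of all with TMM scaling and 41.1% with DESeq2's size factors, which moved the median over all genes from 0.038 to -0.073. The count rose to 4103 and 5074 without WT1 or WT2 and fell to 228 and 114 without 5 or 8. Each of these leaves 1 preparation for 1 day.

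Of 41 G2/M genes, 26 changed upward, with a median of 1.051 against 0.038 over all genes tested, and 10 and 8 did so without 5 or without 8. The list mean was at -0.614 and -0.823 in the E10.5 pairs, -1.174 in the E11.5 pair, and 0.361 and 0.396 in the E13.5 pairs. Scaled over all 25 libraries, the list mean in unsorted cells was 6.872 and 7.141 at E10.5 and 6.692 and 6.714 log2 CPM at E13.5. In the gate it was 6.216 and 6.276 at E10.5 and 6.963 and 7.024 at E13.5. Cenpa, the centromeric histone, changed by 1.74, Plk1, the mitotic kinase, by 1.48 and Ccnb1 by 1.43. Mki67 was at 0.51 (adjusted p = 0.343), and of the 59 histone genes 3 changed upward.

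Liver genes changed upward as well. Of 18 hepatocyte genes, 10 did, with a median of 1.856, and 7 and 8 without 5 or without 8. Alb, serum albumin (ENSMUSG00000029368.10, chr5:90460897-90476602), was at 0.605, 1.55, 4.45, 742 and 550 CPM in the gate and at 8.87, 4.24, 3.38, 461 and 345 CPM unsorted. In the E10.5 pairs the gate was lower and in the E13.5 pairs higher (2.97, adjusted p = 0.0254). Afp, the fetal counterpart of albumin, changed by 2.91, Fgb, a fibrinogen chain, by 3.25 and Serpinf2, an antiplasmin made in liver, by 2.83. Mt1, a metallothionein, changed by 2.71. It was at 5.45, 4.12, 5.66, 61 and 53 CPM in the gate and at 94, 50.9, 126, 132 and 119 CPM unsorted, lower in every pair but less so at E13.5.

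Endothelial genes went the other way, with 5 of 15 changed downward and a median of -1.493. The count was 11 without WT1 or WT2, 9 without 5, and 0 without the preparation block. Tie1 and Flt1 changed by -1.62 and -1.51. Of 14 cartilage genes 4 changed downward, among them Acan at -1.64, and the count was 10 without WT1, 7 without WT2 and 2 without 5. Of the erythroid genes Hbb-bh1 changed upward, by 1.45, and Nfe2, Alas2 and Tfrc downward, by -2.76, -2.08 and -1.24, and 8 did so without WT1. Among abundant genes, downward changes were also large for Ypel4 (-2.87), Tnfaip2 (-2.76), Ogn (-2.64) and Tmcc2 (-2.58). Tmcc2 was at 437 and 409 CPM in the E13.5 unsorted libraries and at 44.2 to 70.5 CPM in the other 8.

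**Figure D4:**
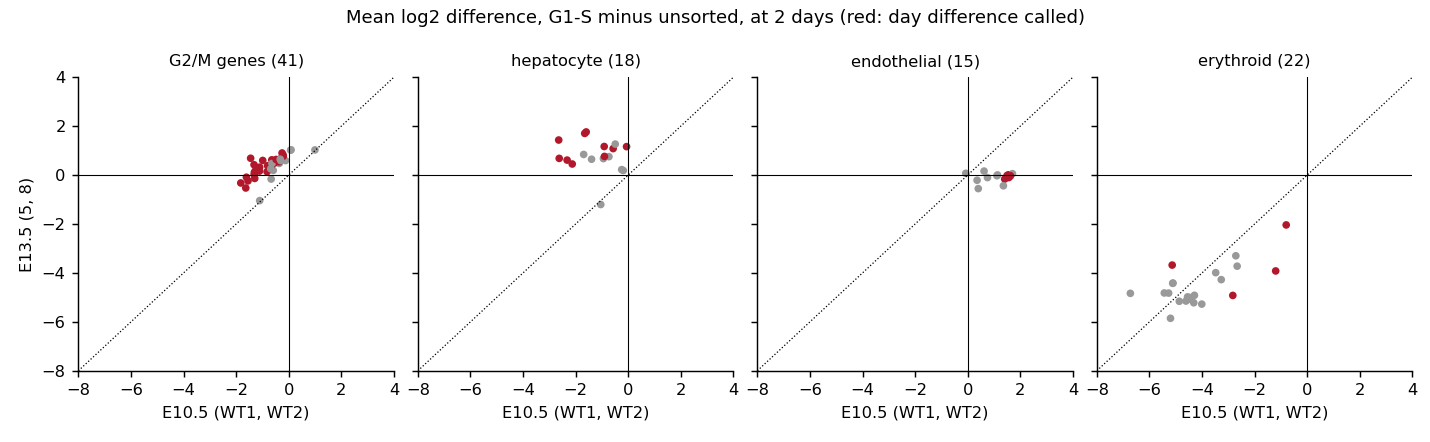
The log2 difference between G1-S and unsorted cells at E10.5 (x axis, mean of WT1 and WT2) and at E13.5 (y axis, mean of 5 and 8) for the genes of 4 lists, with a dotted line where both are equal. Genes with a called day difference are red, among them 26 of 41 G2/M genes and 10 of 18 hepatocyte genes above the line and 5 of 15 endothelial genes below it. Called or not, the fitted day differences ran from 0.031 to 2.132 for G2/M genes and from -1.703 to -0.244 for endothelial genes.

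Where the gate differs from other sorted cells was asked in a comparison with the mean of the G0, G1 and S-G2-M gates, which uses no unsorted library but shares the G1-S libraries. Of 22910 genes, 8469 (37%) differed, 4593 (20%) higher and 3876 (16.9%) lower, with a median of 0. All 31 DNA synthesis genes, all 19 recombination genes and 20 of 23 licensing genes were higher there, with medians of 1.232, 1.566 and 1.032. Against unsorted cells the medians of these lists were 0.354, 0.652 and 0.194. Against the mean of the other gates 40 of 41 G2/M genes and 60 of 61 histones were higher, with medians of 1.951 and 2.667. G1-S was the highest gate in every preparation for only 1 of 41 G2/M genes and 0 of 62 histones. The G2/M list mean was higher in S-G2-M than in G1-S in every preparation. It was 7.602, 7.65, 7.595, 7.989 and 7.936 log2 CPM in S-G2-M and 6.216, 6.276, 6.247, 6.963 and 7.024 in G1-S. Hepatocyte, macrophage and cardiac genes were also higher against the other gates, 17 of 17, 15 of 16 and 16 of 18, with medians of 3.563, 2.956 and 2.389. For hepatocyte genes the preparations were unlike. Their list mean in G1-S was 0.227, 0.297 and 1.499 log2 CPM in WT1, WT2 and WT3, and 5.719 and 5.363 in 5 and 8. In the other gates it lay between -1.02 and 0.345. Of 19 hepatocyte genes, 2 had G1-S as the highest gate in every preparation. Among named genes, Alb was higher by 5.02, Afp by 4.77, Fgb by 4.65, Mybpc3 by 4.03, Myh6 by 3.90, Myh7 by 3.88 and Apob by 3.76. Neuronal genes were lower, 17 of 26, with Scrt2 at -2.27, and 12 to 22 were lower without 1 preparation. Of 21 erythroid genes 4 were higher, and 2 without 5. Of 80 ribosomal protein genes 45 were higher, and 22, 24 and 23 without WT1, WT3 or 5. TEC models inside coding genes had a median of -0.235, and the length bins of coding genes 0.142, 0.061, 0 and -0.07.

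Unsorted values were also placed against the range of the 4 gates. Of 23506 genes, 1194 (5.08%) had an unsorted CPM above all 4 gates in each of the 5 preparations, and 508 (2.16%) one below all 4. All 22 erythroid genes were above, as were 40 of 80 ribosomal protein genes, 4 of 14 heat shock genes and 3 of 18 glycolysis genes. At least 2-fold above every gate in each preparation were 97 genes (0.413%), 19 of them on the erythroid list. The globin share of counts was 0.00841 to 0.0639% in G0, 0.0463 to 0.344% in G1 and 0.00621 to 0.0422% in S-G2-M, all below the lowest unsorted value of 1.54%. The list mean of neuronal genes in unsorted cells lay below G0 and above G1-S and S-G2-M in all 5 preparations, and G1 was above it in WT1, WT2 and WT3. G1-S was the highest of the gates in every preparation for 801 genes (3.41%), among them 13 of 23 licensing genes, 15 of 31 DNA synthesis genes, 13 of 16 macrophage genes, 11 of 15 endothelial genes and 10 of 18 cardiac genes.

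**Figure D5:**
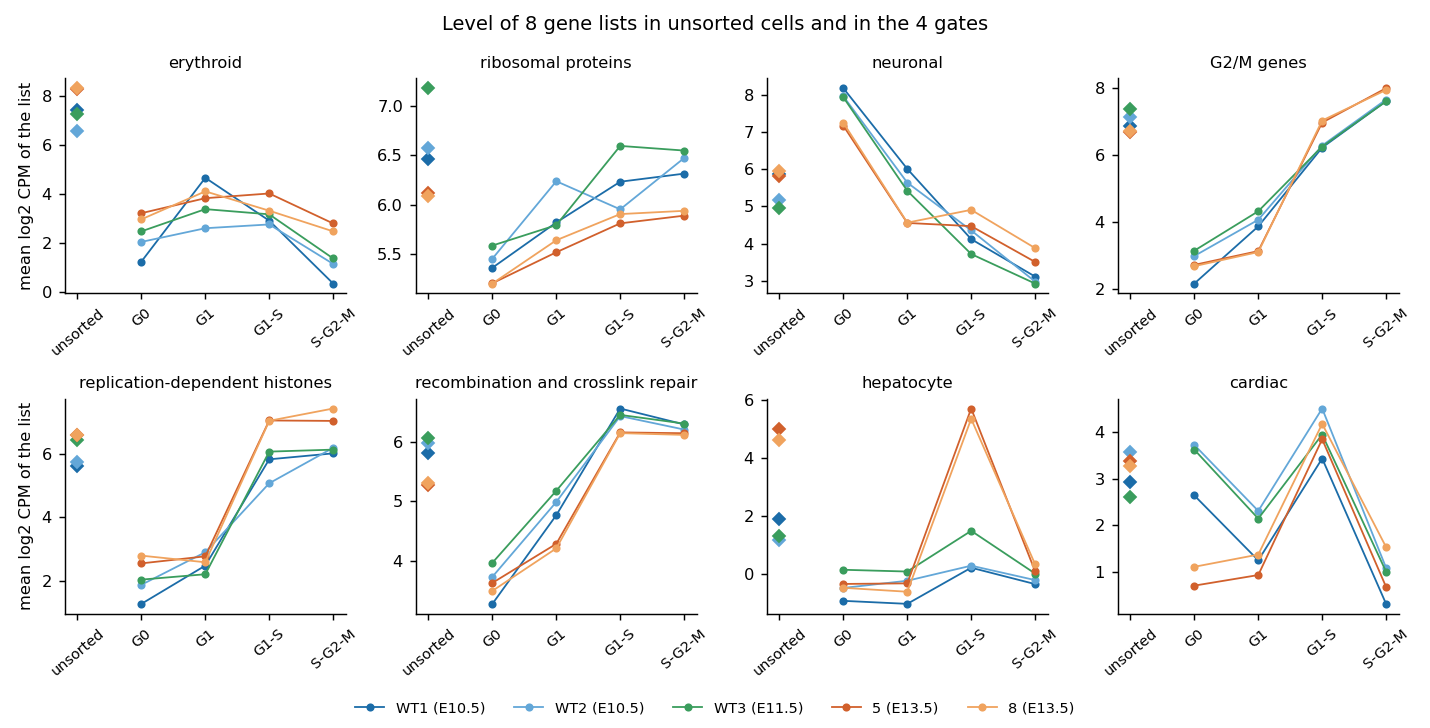
Mean log2 CPM of 8 gene lists (y axis) in unsorted cells (diamonds) and in the G0, G1, G1-S and S-G2-M gates (points joined by lines), coloured by preparation and scaled over all 25 libraries. Erythroid genes lie between 6.563 and 8.298 in unsorted cells and at or below 4.647 in every gate, and hepatocyte genes of preparations 5 and 8 peak in G1-S at 5.719 and 5.363.

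Some of these values rest on counting that the sources do not describe. Whether reads were counted by strand is not given, and exons of another gene on the opposite strand cover 30.7% of the exon bases of Cdkn1c, 22.8% of Ube2c, 20.1% of Fbn1, 18.8% of Sox21, 17.4% of Ccne2, 15% of Mpo, 14.1% of Ina, 13.3% of Myh7 and 11.2% of E2f8. For these genes reads from the partner cannot be told apart.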

How the data were processed

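Gene counts were deposited by the authors as 1 table of raw read counts for 52550 genes, with 1 column for each of 130 lane parts. Minced embryos were sorted by flow, and column-purified RNA was depleted of ribosomal RNA for Illumina libraries, per the labels' protocols. The submitters' processing notes name STAR 2.5.3, HTSeq 0.8.0 and the build mm10. For annotation, strand setting and kit: not given in the sources used here. Columns were summed per library through their labels.

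Genes were filtered with edgeR's filterByExpr (minimum count 10, minimum total 15), scaled by TMM and tested with edgeR 4.0.16 (R 4.3.3) using the robust quasi-likelihood fit with preparation as a block, on 10 libraries with 4 residual degrees of freedom. The day difference had 2 and the comparison with the other gates (20 sorted libraries) 12. P-values were adjusted by Benjamini-Hochberg over all genes tested, with a threshold of 0.05. CPM used TMM library sizes, 0.5 was added to counts before log2, and SEs are the log2 change over the root of F. In data simulated for the main comparison (20677 genes), 40.3% of 1.5-fold, 89.4% of 2-fold and 100% of 4-fold changes were recovered, with 3.27% false calls. For the day difference (20688 genes) recovery was 0, 7.46 and 68.2%. Both simulations gave every gene the same dispersion and changed only a small part of the genes, so these rates need not hold for the real data.

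Preparations pair the libraries by their titles. Deviations from the day's mean correlated at 0.198 and 0.218 between the fractions of a preparation at E10.5 and E13.5.

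The members, the 31 gene lists and the tests were chosen with earlier results of these data known. Named genes were the 8 highest and 8 lowest changes among genes called with the same direction in all 5 pairs and a mean log2 CPM of at least 3, the 2 largest and 1 opposite member of each list (mean log2 CPM of at least 1), 5 each way for the other comparisons, and named cell cycle, albumin and globin genes. Other list members were added to describe roles, after their values were seen. Alternatives were no block, all 25 libraries, DESeq2 1.42.0 and its size factors, other filters, a 1.5-fold minimum (glmTreat), leaving out Gm26917 and Gm42418, a fit without robust estimation, each title series alone, and leaving out each preparation. Locations are from GENCODE M21 (GRCm38), which matched 52403 identifiers. Promoters are from RefSeq (GRCm38.p6), printed for the stretch up to 200 bases before the start without annotated exon bases except 8 in Ube2c. Some genes that this rule selects are not reported here.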

Additional observations from a re-analysis of the deposited data

Results flagged for a closer look

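Of 139 sets of 5 paired differences, 5 had 1 preparation far from the other 4; chance flags about 1 in 20. For Erbb3 it was WT2 (log2 difference 0.65, the others higher, up to 1.63). For Cnmd, Cdh1 and Lhx1 it was WT1, at -2.48 (others -1.01 to -0.60), 1.46 (others 0.31 to 0.55) and -3.08 (others -1.35 to -0.97). For Pax8 it was WT3, at 0.60, against -1.49 to -1.17.

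The difference between G1-S and unsorted cells changed between E10.5 and E13.5, by the test of that change itself, for 16 of the 108 named genes. Of these, 10 were named for a large day difference, so the count is partly set by that choice. Over all genes tested the share was 1.79%. It moved upward for Ube2c by 1.49, Ccnb2 by 1.11, Apob by 1.22, Alb by 2.97, Afp by 2.91, Fgb by 3.25, Serpinf2 by 2.83 and Mt1 by 2.71. It moved downward for Col6a2 (-1.38), Flt1 (-1.51), E2f2 (-1.93), Ypel4 (-2.87), Tnfaip2 (-2.76), Nfe2 (-2.76), Ogn (-2.64) and Tmcc2 (-2.58). Day and title series cannot be told apart in any of them.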

How the results depend on the processing

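The direction of most results held. Of 1836 values of named genes under the alternatives to the main comparison, 1603 kept direction and side of the threshold, 211 no longer passed, 16 newly passed and 6 reversed. The reversed values were E2f2 within the WT-titled preparations (0.56) and, within 5 and 8, Col6a2 (-0.02), Alb (0.68), Afp (0.61), Serpinf2 (1.07) and Ogn (-1.14), where the skeletal muscle median was -0.408. Counts in the main comparison were 7168 without the replicate block. Lower calls were 4752 and 4717 with all 25 libraries, with and without the block. With a 1.5-fold minimum 382 genes passed (154 higher, 228 lower), within the WT-titled preparations 1987 (932 and 1055), and within 5 and 8 10518 (5289 and 5229). Without 1 preparation 3147 to 7166 were called, 1439 to 3382 higher and 1708 to 3784 lower. Upward calls were 47.6% of all, 40.4 and 39.4% with 25 libraries and 39% without a filter.

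The day difference gave 2021 calls (1081 upward, 940 downward) with 25 libraries, 287 downward with DESeq2's size factors, 1506 (903 and 603) without a filter, 114 to 5074 (54 to 2838 and 60 to 2236) without 1 preparation, and 362 without the block. Its causes were not tested. The numbers of genes called against the other gates stayed within 1.5-fold under the alternatives run (8435 without the block), while 4 list counts did not. In the simulated data with 5 pairs, 40.3% of 1.5-fold changes were recovered, so such changes can be missed. Smaller changes did pass for some genes of the real data, as for Zmat3 at 0.36 ± 0.09.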

Other observations

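Among genes on no list, several were far above every gate in the unsorted libraries of each preparation. Trim10 was on average 4.2 log2 units above the highest gate, Kcnn4, a calcium-activated potassium channel of red cells, 4.05, Car2, a carbonic anhydrase, 3.84, and Pklr, the pyruvate kinase of liver and red cells, 3.81. Kel and Ermap, which carry blood group antigens, were both at 3.75, and Blvrb, a biliverdin reductase, and Slc25a37, the mitochondrial iron importer mitoferrin, at 3.17 and 3.06. These genes were picked after their values were seen.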
